A study of Mus musculus with 39 samples.

Results

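The interferon-stimulated genes described here are 37 genes outside the oligoadenylate synthetase (OAS) family that cells switch on when they sense interferon, chosen by symbol with earlier results of these data known. All 37 were found among the 37583 genes counted in each library, and 36 of them had reads. Their levels were read in 39 RNA sequencing libraries from the cortical bone of mouse femurs, in 2 experiments on mice with a high trabecular bone mass. The first had 8 libraries that are labelled Sik2/3 DKO, for mice lacking both salt-inducible kinases Sik2 and Sik3, beside 8 labelled wild type (WT). In the second, 12 libraries came from mice with the Col1a1-Pth1r H223R transgene (C1HR), in which a type I collagen promoter drives an always-active parathyroid hormone receptor in cells of the osteoblast lineage, and 11 libraries of its own WT mice. Neither the age of the mice, nor their sex or strain, nor the means by which Sik2 and Sik3 were deleted is given in the sources used here. The submitters' design text counts 6 WT samples for the Sik2/3 experiment where 8 are labelled, and all 8 were used. Nothing in the labels says that each library came from a separate animal, so p-values measure the spread between these libraries, part of which may be technical. The tests treated the libraries as independent, although some within a group resembled each other more closely than the rest, as given below.

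Interferons are cytokines released when cells sense viral nucleic acid or, for interferon gamma, by activated T and NK cells. Type I interferons act through the receptor kinases JAK1 and TYK2 on the factor ISGF3, which includes STAT2 and IRF9 and binds a GAAA-rich promoter element, the interferon-stimulated response element (ISRE). Interferon gamma acts mainly through a second element, the gamma-activated site (GAS). Bone holds osteoblast-lineage cells, osteoclasts and the haematopoietic cells of the marrow, all of which respond to interferon.

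Promoter sequence was looked at because the members were picked as one response while they did not all move the same way. RefSeq promoter windows of 300 bases (build GRCm38.p6, 250 bases before and 50 after the annotated start) were matched by symbol for 29 of the 37 members, with 34 windows among them. Dhx58, Zbp1, Usp18, Mx1, Mx2, Rtp4, Parp9 and Parp14 had none. The ISRE-like letters searched were GAAA, any 2 bases and GAAA again (on the opposite strand TTTC, any 2 bases and TTTC), and the GAS-like letters were TTCNNNGAA, which read the same on both strands, and matches were allowed to overlap. ISRE-like letters stood in 14 of the 34 member windows (41.2%) and in 3.44% of all 32851 windows. GAS-like letters stood in 8 member windows (23.5%) and in 8.3% of all windows. The stretches shown are from 5 genes with ISRE-like letters, of which Isg15, Ifit1, Rsad2 and Igtp rose in one experiment and fell in the other while Bst2 rose in one alone, and from Irf1, which rose in both and had GAS-like letters only. They are printed 5′ to 3′ along each gene, with the matching letters in capitals. A match describes the letters in the window and is not a tested binding site.
Isg15: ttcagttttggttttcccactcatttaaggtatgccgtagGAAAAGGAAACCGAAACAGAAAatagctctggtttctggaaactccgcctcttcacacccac
Ifit1: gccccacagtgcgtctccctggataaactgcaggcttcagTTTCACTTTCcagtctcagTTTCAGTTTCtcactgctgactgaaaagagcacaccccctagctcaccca
Rsad2: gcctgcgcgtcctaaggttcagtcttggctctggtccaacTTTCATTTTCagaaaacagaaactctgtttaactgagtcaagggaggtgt
Igtp: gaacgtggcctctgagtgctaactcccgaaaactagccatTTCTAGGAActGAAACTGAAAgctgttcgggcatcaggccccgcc
Bst2: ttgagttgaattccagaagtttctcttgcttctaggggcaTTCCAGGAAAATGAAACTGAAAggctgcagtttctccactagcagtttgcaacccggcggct
Irf1: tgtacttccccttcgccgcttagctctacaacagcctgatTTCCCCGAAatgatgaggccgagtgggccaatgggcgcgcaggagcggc
Counted back from the annotated start, the matches began at positions -78, -72 and -66 in Isg15, where they overlap into one run of GAAA repeats. In Ifit1 they began at -104 and -85, and in Rsad2 at -120. Igtp had a GAS-like match at -45 followed by an ISRE-like match at -34, and Bst2 had a GAS-like match at -136 running into ISRE-like matches at -130 and -124. The single match of Irf1 was GAS-like, at -90. The stretches lie at chr4:156200835-156200936 on the minus strand for Isg15, chr19:34640745-34640853 on the plus strand for Ifit1 and chr12:26456523-26456612 on the minus strand for Rsad2. Those of Igtp and Irf1 lie on the plus strand of chromosome 11, at chr11:58199471-58199555 and chr11:53769884-53769972, and that of Bst2 at chr8:71537547-71537648 on the minus strand. Of 15 members with a window that rose in the Sik2/3 experiment and fell in C1HR, 6 held ISRE-like letters. They were also in 2 of 5 such members that rose in both experiments, and in 4 of 4 that rose in the Sik2/3 experiment with no call in C1HR.

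Reads assigned to genes numbered 22122742 to 23306853 per DKO-labelled library and 20324595 to 24922490 per WT-labelled library. They numbered 14909609 to 16370874 in C1HR and 11444686 to 13475805 in its WT. The genotype labels could not be checked fully. Sik2, counted over all its exons, measured 21.9 to 43.4 CPM (read counts scaled to the library total) in DKO-labelled libraries and 14.2 to 23.4 in WT-labelled ones, so it went against its label. Sik3 was not lower either, with 83.0 to 135 CPM (median 91.9) in DKO-labelled libraries and 62.5 to 124.8 CPM (median 93.0) in WT-labelled ones. Counts that pool all exons cannot show the loss of one exon, and they do not settle why Sik2 was higher. The groups of the Sik2/3 experiment are therefore named by their labels throughout. Every direction given for that experiment rests on these labels and would reverse if the groups were exchanged, which was not tested. Pth1r, the gene of the transgene, measured 330 to 482 in C1HR and 110.3 to 185.5 in its WT. The CPM values that follow were further scaled with TMM within each experiment. Bone markers were present in every library, with 7 osteoblast markers summing to 42480 CPM or more in DKO-labelled libraries and 32169 CPM or more in the WT of C1HR. The design text and the extraction protocol disagree on whether the C1HR bones were flushed of marrow, and marrow markers differed strongly between all 4 groups, as given with the members below.

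In DKO-labelled libraries, 33 of the 36 measured members were higher than in WT-labelled ones and 0 were lower by edgeR's quasi-likelihood test, at an adjusted p under 0.05. Over all 15479 genes tested, 24.1% were higher and 30.9% lower (55% either way). The members' median log2 fold change was 1.38, against -0.09 over all genes tested, and 27 members rose by more than 2-fold, as did 10.7% of all genes, while 0 fell by as much, against 6.76% of all genes (17.4% either way). In C1HR, 8 of the 33 members tested were higher than in its WT and 18 were lower, in a comparison in which 43.7% of 13976 genes were higher and 40.6% lower (84.3% either way). The share of members called in C1HR, 26 of 33, was thus near the share of all genes called, and their median log2 fold change was -0.31 against 0.05 over all genes. Beyond 2-fold, 1 member was higher and 9 were lower in C1HR, against 22.1% and 16.8% of all genes (38.9% either way). Scaling libraries by total counts in place of TMM moved the median log2 fold change of all genes in C1HR to -0.35. With it, 4321 of the 13976 genes were higher and 7698 lower (86% either way). Among the members, 2 were then higher (Rtp4 and Parp12) and 24 lower. Of the others called higher with TMM, Ddx58, Ifitm3 and Gbp2 then had log2 fold changes of -0.08, -0.10 and -0.14, and Irf1, Ifi44 and Xaf1 of 0.060, 0.44 and 0.069 with no call. Markers of granulocytes, of the B lineage and of erythroid cells moved in the same directions as most members, as given below. With their levels as covariates 4 of 36 members were called higher in DKO-labelled libraries, as were 854 of all 15479 genes tested.

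**Figure D1:**
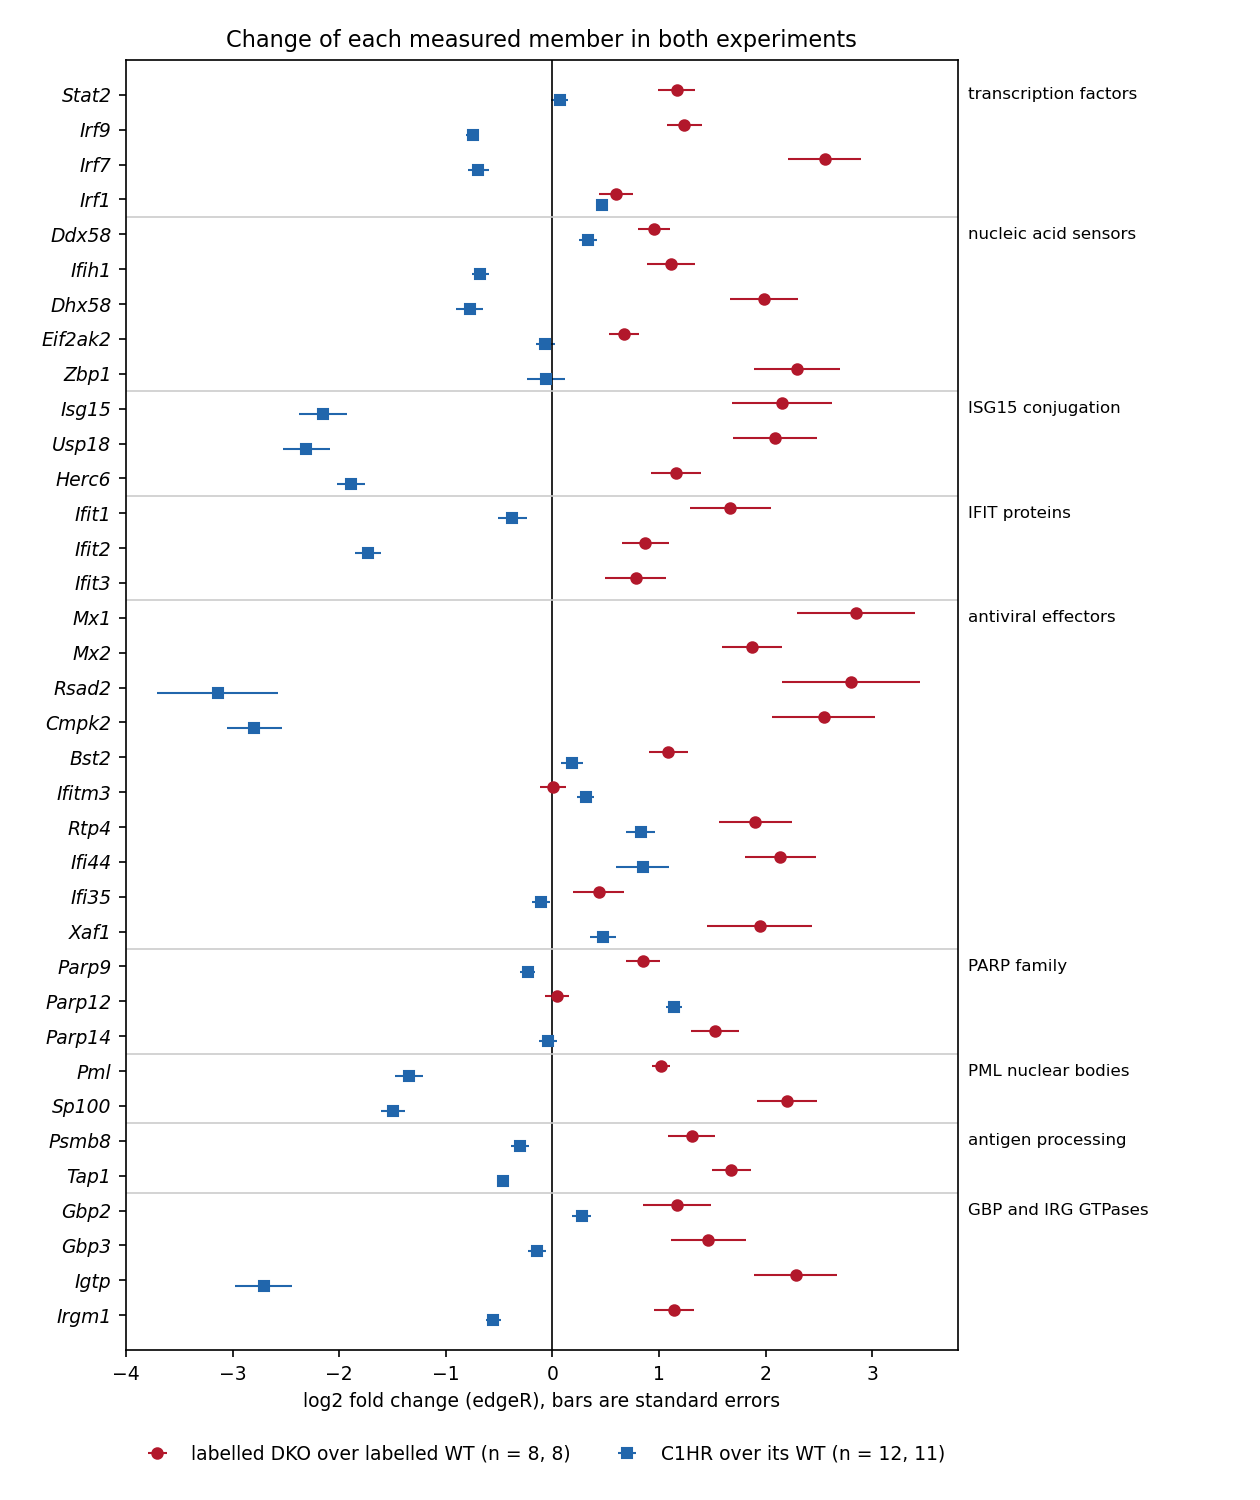
Log2 fold change of each of the 36 measured members (rows, grouped by role) for DKO-labelled libraries over WT-labelled ones (circles) and for C1HR over its WT (squares), with standard errors as bars. All circles lie at or right of 0, up to 2.85 for Mx1, while the squares run from -3.14 for Rsad2 to 1.14 for Parp12. Ifit3, Mx1 and Mx2 have no square because they were not tested in C1HR.

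Read together, the experiments split the members. There were 18 members that rose in DKO-labelled libraries and fell in C1HR, and 6 that rose in both (Irf1, Ddx58, Rtp4, Ifi44, Xaf1 and Gbp2). Another 6 rose in DKO-labelled libraries with no call in C1HR (Stat2, Eif2ak2, Zbp1, Bst2, Parp14 and Gbp3), and Ifit3, Mx1 and Mx2 rose there and were too low to be tested in C1HR. Ifitm3 and Parp12 rose in C1HR alone, and Ifi35 was called in neither. How many of all genes fall in each of these classes was not counted. Taken singly, 24.1% of all genes tested rose in DKO-labelled libraries and 40.6% fell in C1HR. Opposite movement was not particular to the members, since granulocyte and osteoclast markers also moved in opposite directions, as given below. Psmb9, a subunit of the immunoproteasome, had 0 reads in all 39 libraries. It is annotated by 2 overlapping identifiers, and 99.9% of its 50-base stretches also occur in another annotated gene, so reads from it would be tallied as ambiguous or as not unique, and its 0 is no measure of its expression. Mx1 in the Sik2/3 experiment, and Zbp1, Usp18 and Ifi44 in C1HR, passed the filter on low counts without reaching its cutoff in every library. Every library labelled DKO lay above every library labelled WT in 17 of 36 members and below in 0, against 5.96% and 4.08% of all genes tested (10% either way). In 13 of 33 members every C1HR library lay below every WT library, against 24.9% of all genes. In 1 member, Parp12, every C1HR library lay above, against 27.8% of all genes (52.8% either way).

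The transcription factors that carry the interferon signal to promoters all rose in DKO-labelled libraries. Irf7, the factor that amplifies the type I response, measured 32.99 to 101 CPM (median 49.2) in DKO-labelled libraries and 4.43 to 17.6 CPM (median 8.01) in WT-labelled ones. The groups did not overlap (log2 fold change 2.55 with SE 0.34, edgeR adjusted p = 4.15e-05). In C1HR Irf7 measured 5.64 to 10.5 CPM (median 7.14) against 10.1 to 14.7 CPM (median 11.9) in its WT, with overlap (log2 fold change -0.69 with SE 0.098, edgeR adjusted p = 3.61e-07). Irf9, the DNA-binding subunit of ISGF3, measured 63.4 to 98.7 CPM (median 74.8) in DKO-labelled libraries, against 18.9 to 43.9 CPM (median 32.8) in WT-labelled ones. It measured 19.6 to 28.3 CPM (median 23.8) in C1HR, against 34.7 to 46.0 CPM (median 40.2) in its WT. Neither pair of groups overlapped, and Irf9 rose in the first (log2 fold change 1.24 with SE 0.16, edgeR adjusted p = 4.13e-05) and fell in the second (log2 fold change -0.75 with SE 0.060, edgeR adjusted p = 1.88e-11). Stat2, its partner in ISGF3, measured 39.8 to 82.4 CPM (median 62.8) in DKO-labelled libraries and 18.2 to 38.1 CPM (median 28.8) in WT-labelled ones, with no overlap (log2 fold change 1.17 with SE 0.17, edgeR adjusted p = 8.05e-05). In C1HR Stat2 was not called, with 13.2 to 21.8 CPM (median 16.4) against 14.6 to 18.2 CPM (median 16.6) in its WT (log2 fold change 0.066 with SE 0.077, edgeR adjusted p = 0.424). Irf1, a factor induced by interferon gamma, rose in both experiments. It measured 35.9 to 62.4 CPM (median 51.2) in DKO-labelled libraries and 21.3 to 45.8 CPM (median 33.1) in WT-labelled ones (log2 fold change 0.60 with SE 0.16, edgeR adjusted p = 0.00477). In C1HR it had 27.5 to 37.1 CPM (median 34.3), against 20.9 to 27.9 CPM (median 24.4) in its WT (log2 fold change 0.47 with SE 0.056, edgeR adjusted p = 2.8e-08). The groups overlapped in both experiments, and the 2 effects on Irf1 were not shown to differ (difference of log2 fold changes 0.19, SE 0.15, edgeR adjusted p = 0.234). The difference was called in limma voom (0.40, adjusted p = 0.00507) and with total counts (0.74, edgeR adjusted p = 0.000134).

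All 5 sensors of cytosolic nucleic acid rose in DKO-labelled libraries, by log2 fold changes of 0.67 to 2.29. Zbp1, which binds nucleic acids in the Z form and can set off necroptosis, measured 5.95 to 27.9 CPM (median 12.4) in DKO-labelled libraries and 0.955 to 5.83 CPM (median 2.54) in WT-labelled ones, with no overlap (log2 fold change 2.29 with SE 0.41, edgeR adjusted p = 0.000268). In C1HR it was low in all libraries and not called, with 0.654 to 2.42 CPM (median 1.53) against 1.08 to 2.03 CPM (median 1.62) in its WT (log2 fold change -0.063 with SE 0.18, edgeR adjusted p = 0.753). Ddx58, the RNA sensor RIG-I and the most abundant of the group by CPM, measured 39.5 to 76.6 CPM (median 57.9) in DKO-labelled libraries, against 22.5 to 38.9 CPM (median 28.4) in WT-labelled ones (log2 fold change 0.95 with SE 0.15, edgeR adjusted p = 9.84e-05). It also rose in C1HR, to 16.4 to 32.5 CPM (median 23.4) against 16.2 to 19.7 CPM (median 18.5) in its WT (log2 fold change 0.34 with SE 0.083, edgeR adjusted p = 0.000575), with overlapping groups there. Its relatives did otherwise: Ifih1, the sensor MDA5 of long double-stranded RNA, and Dhx58, LGP2, a RIG-I-like helicase that modulates the other two, fell in C1HR by 0.68 and 0.78 on the log2 scale. Eif2ak2, the kinase PKR that halts translation on binding double-stranded RNA, measured 30.3 to 50.5 CPM (median 37.3) in DKO-labelled libraries and 17.5 to 31.4 CPM (median 23.1) in WT-labelled ones, which overlap slightly (log2 fold change 0.67 with SE 0.14, edgeR adjusted p = 0.000789). It was not called in C1HR, at 11.6 to 20.4 CPM (median 15.8) against 13.3 to 19.2 CPM (median 17.1) in its WT (log2 fold change -0.065 with SE 0.085, edgeR adjusted p = 0.476).

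All 3 members of the ISG15 system rose in DKO-labelled libraries and fell in C1HR. ISG15 is a ubiquitin-like protein that is attached to other proteins, in mice by the ligase HERC6, and removed by USP18, which also dampens the interferon receptor. Isg15 itself measured 14.3 to 36.5 CPM (median 20.3) in DKO-labelled libraries and 1.51 to 17.3 CPM (median 2.97) in WT-labelled ones, where only the library labelled WT 5 reached into the DKO range (log2 fold change 2.16 with SE 0.47, edgeR adjusted p = 0.00122). Without WT 5 its log2 fold change was 2.79. Across C1HR it had 1.46 to 7.69 CPM (median 2.93), all below its WT at 12.0 to 23.3 CPM (median 17.6) (log2 fold change -2.15 with SE 0.23, edgeR adjusted p = 3.66e-09). Usp18 measured 5.75 to 18.6 CPM (median 9.96) in DKO-labelled libraries and 0.747 to 5.33 CPM (median 1.84) in WT-labelled ones (log2 fold change 2.08 with SE 0.39, edgeR adjusted p = 0.000438). It measured 0.458 to 3.95 CPM (median 1.40) in C1HR and 6.36 to 12.0 CPM (median 7.25) in its WT (log2 fold change -2.31 with SE 0.22, edgeR adjusted p = 3.95e-10). Neither pair of groups overlapped for Usp18. Herc6 measured 18.7 to 39.2 CPM (median 24.4) in DKO-labelled libraries, against 6.87 to 21.2 CPM (median 9.80) in WT-labelled ones, with overlap (log2 fold change 1.16 with SE 0.23, edgeR adjusted p = 0.000693). In C1HR it measured 4.27 to 12.1 CPM (median 6.63), against 22.9 to 29.7 CPM (median 26.2) in its WT, with none (log2 fold change -1.89 with SE 0.13, edgeR adjusted p = 1.14e-12).

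Of the IFIT proteins, which bind viral RNA and block its translation, all 3 rose in DKO-labelled libraries. Ifit2 measured 12.8 to 31.8 CPM (median 20.1) there and 6.45 to 17.7 CPM (median 12.0) in WT-labelled libraries, with overlap (log2 fold change 0.87 with SE 0.22, edgeR adjusted p = 0.00379). In C1HR every library lay below every WT library, with 2.95 to 7.26 CPM (median 3.85) against 12.1 to 16.7 CPM (median 13.7) (log2 fold change -1.73 with SE 0.12, edgeR adjusted p = 1.73e-12). Ifit1 rose by 1.67 on the log2 scale in DKO-labelled libraries and fell by 0.38 in C1HR, where its call was lost in limma voom (log2 fold change -0.25, adjusted p = 0.099) and in a single fit of all 4 groups (-0.40, edgeR adjusted p = 0.144). The call of Ifit3 in DKO-labelled libraries (log2 fold change 0.78 with SE 0.29, edgeR adjusted p = 0.029) is uncertain, since 51.5% of its 50-base stretches also occur in the neighbouring gene I830012O16Rik. It was lost when DKO 3, DKO 4, WT 1 or WT 2 was left out, with log2 fold changes of 0.64 to 0.71 and edgeR adjusted p of 0.055 to 0.0685.

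Among the 10 antiviral effectors, the neighbours Rsad2 and Cmpk2 on chromosome 12 fell most in C1HR, and in DKO-labelled libraries their rise was exceeded by that of Mx1 alone. Rsad2 (ENSMUSG00000020641, 27127618 to 27141317 on the minus strand of chromosome 12 in NCBIM37) encodes viperin, an enzyme that makes a chain-terminating nucleotide, and Cmpk2 (ENSMUSG00000020638, 27154069 to 27164700 on the plus strand) encodes a mitochondrial nucleotide kinase. Rsad2 measured 107 to 279 CPM (median 165) in DKO-labelled libraries and 4.59 to 92.5 CPM (median 9.08) in WT-labelled ones. It measured 6.94 to 176 CPM (median 9.84) in C1HR and 211 to 399.5 CPM (median 253) in its WT. Neither pair of groups overlapped, although WT 5 and WT 6, and C1HR 8 and C1HR 9, stood far above the medians of their groups. Rsad2 rose in DKO-labelled libraries (log2 fold change 2.80 with SE 0.65, edgeR adjusted p = 0.00185) and fell in C1HR (log2 fold change -3.14 with SE 0.57, edgeR adjusted p = 2.26e-05). Single libraries weighed on its size: the log2 fold change was 3.49 without WT 5 and 4.63 without WT 5 and WT 6 in the Sik2/3 experiment, and -3.92 without C1HR 8 and -4.85 without C1HR 8 and C1HR 9 in the C1HR experiment. Cmpk2 rose by 2.55 (SE 0.48) on the log2 scale in DKO-labelled libraries and fell by 2.80 (SE 0.26) in C1HR, again with no overlap in either experiment.

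Other effectors rose in both experiments or in one. Rtp4, a chaperone of receptors that also inhibits flaviviruses, measured 14.2 to 44.3 CPM (median 25.2) in DKO-labelled libraries and 3.04 to 13.3 CPM (median 6.10) in WT-labelled ones, with no overlap (log2 fold change 1.90 with SE 0.35, edgeR adjusted p = 0.000327). In C1HR it had 3.85 to 9.15 CPM (median 5.28), against 2.03 to 4.57 CPM (median 3.28) in its WT (log2 fold change 0.83 with SE 0.14, edgeR adjusted p = 6.1e-06). Ifi44 measured 3.74 to 12.4 CPM (median 8.08) in DKO-labelled libraries, against 0.619 to 3.10 CPM (median 1.54) in WT-labelled ones, and again did not overlap (log2 fold change 2.14 with SE 0.33, edgeR adjusted p = 0.00011). In C1HR Ifi44 lay near 1 CPM or below, at 0.281 to 1.48 CPM (median 0.849) against 0.148 to 0.719 CPM (median 0.469) in its WT (log2 fold change 0.85 with SE 0.25, edgeR adjusted p = 0.00283). Xaf1, a binding partner of the apoptosis inhibitor XIAP, spread widely in the Sik2/3 experiment, with 13.9 to 85.4 CPM (median 60.1) in DKO-labelled libraries and 4.54 to 33.9 CPM (median 9.52) in WT-labelled ones (log2 fold change 1.95 with SE 0.49, edgeR adjusted p = 0.00351). C1HR libraries had 3.27 to 5.46 CPM (median 4.03), against 2.01 to 4.05 CPM (median 2.85) in its WT (log2 fold change 0.47 with SE 0.12, edgeR adjusted p = 0.000836). Groups overlapped for Xaf1 in both experiments, and for Rtp4 and Ifi44 in C1HR. In a single fit of all 4 groups the C1HR rise of Xaf1 was not called (log2 fold change 0.46, edgeR adjusted p = 0.177).

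Bst2, or tetherin, which holds budding virus at the cell surface, measured 29.7 to 46.2 CPM (median 38.6) in DKO-labelled libraries and 12.4 to 32.1 CPM (median 16.3) in WT-labelled ones, where WT 5 overlapped the DKO range (log2 fold change 1.09 with SE 0.18, edgeR adjusted p = 0.000187). It was not called in C1HR, at 11.4 to 25.4 CPM (median 15.4) against 11.7 to 16.4 CPM (median 14.1) in its WT (log2 fold change 0.18 with SE 0.10, edgeR adjusted p = 0.0987), but was higher without C1HR 8 (0.22, edgeR adjusted p = 0.0392). Ifitm3, which blocks the fusion of virus in endosomes, was the member that differed least in the Sik2/3 experiment. It measured 114 to 182 CPM (median 137) in DKO-labelled libraries and 101 to 165 CPM (median 155) in WT-labelled ones (log2 fold change 0.0030 with SE 0.12, edgeR adjusted p = 0.985), and 10% of its 50-base stretches also occur in related genes. In C1HR it was higher, at 90.6 to 151 CPM (median 111) against 78.1 to 107 CPM (median 95.8) in its WT, with overlap (log2 fold change 0.31 with SE 0.082, edgeR adjusted p = 0.00105). Ifi35 measured 21.8 to 52.6 CPM (median 24.1) in DKO-labelled libraries and 13.7 to 34.7 CPM (median 20.5) in WT-labelled ones (log2 fold change 0.43 with SE 0.24, edgeR adjusted p = 0.13). It measured 8.63 to 15.1 CPM (median 10.9) in C1HR and 10.3 to 14.1 CPM (median 12.2) in its WT (log2 fold change -0.11 with SE 0.083, edgeR adjusted p = 0.218). Both pairs of groups overlapped for Ifi35. It was higher in DKO-labelled libraries in a single fit of all 4 groups (0.48, edgeR adjusted p = 0.0166) and with total counts (0.66, edgeR adjusted p = 0.0273), and lower in C1HR without C1HR 8 and C1HR 9 (-0.21, edgeR adjusted p = 0.0362) and with total counts (-0.51, edgeR adjusted p = 4.06e-05). The GTPases Mx1 and Mx2, which trap viral particles, rose in DKO-labelled libraries by 2.85 (SE 0.55) and 1.87 (SE 0.28) on the log2 scale and stayed under 1 CPM in every library of the C1HR experiment.

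**Figure D2:**
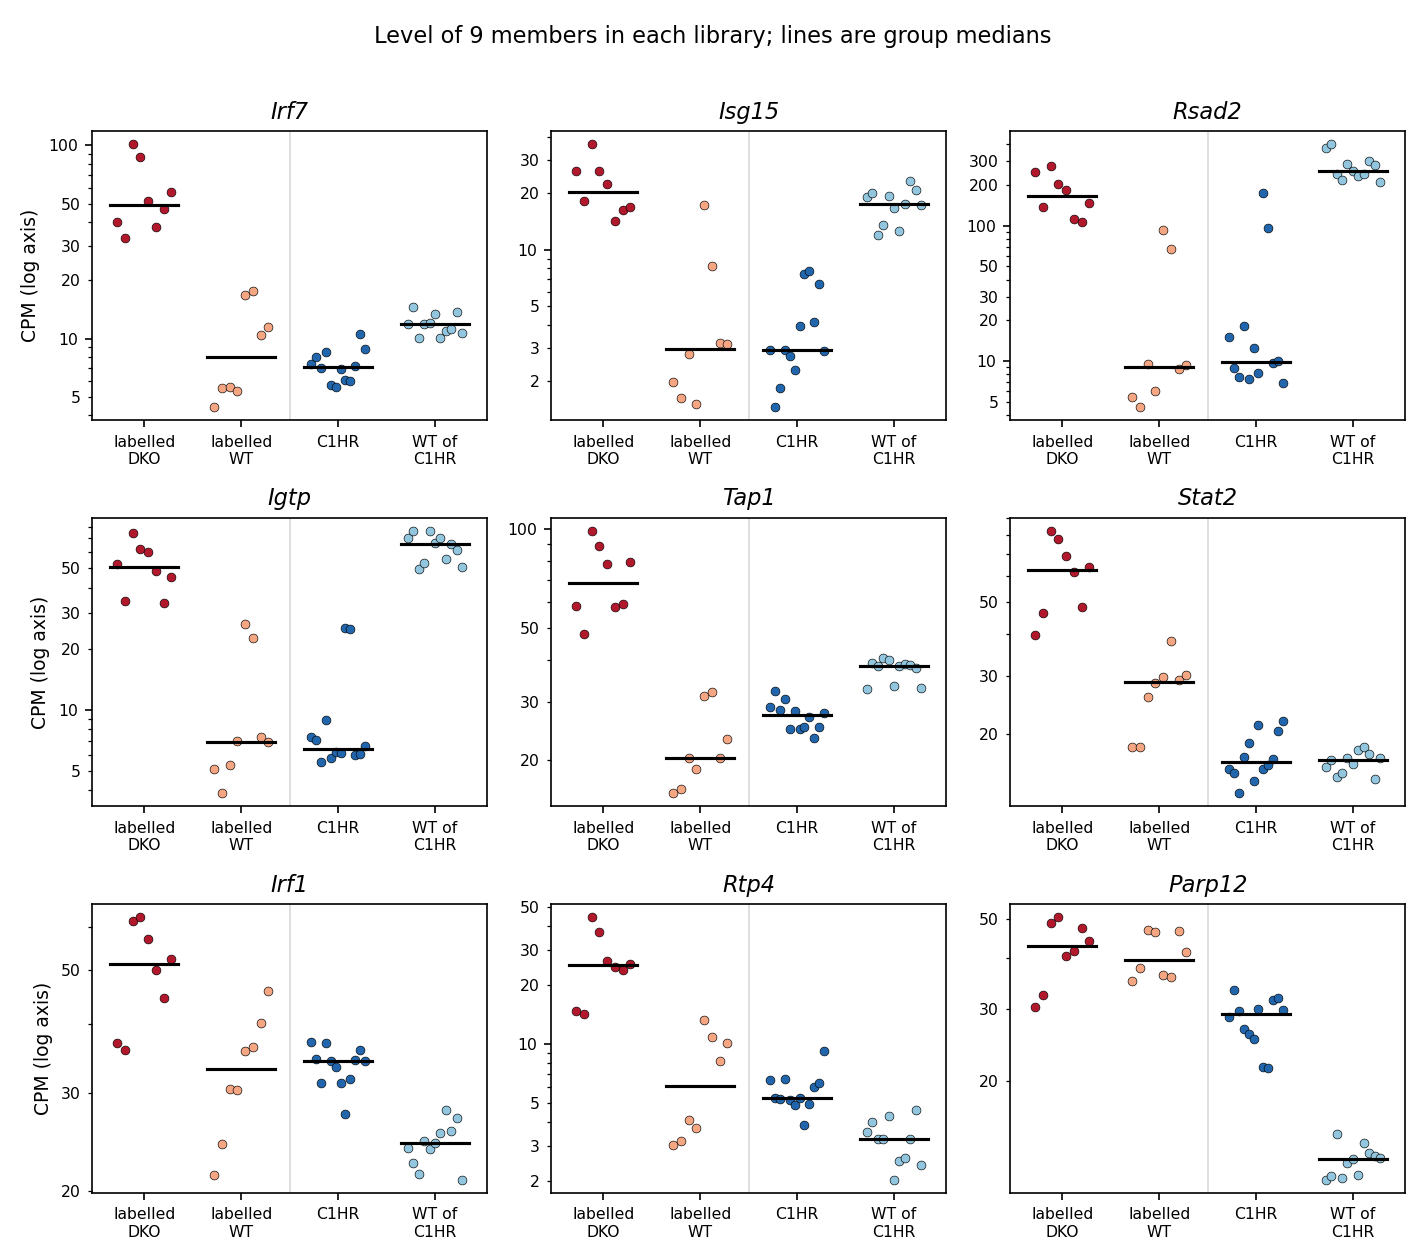
CPM of 9 members on a log axis in each library, from left to right DKO-labelled libraries (8), WT-labelled ones (8), C1HR (12) and its WT (11), with black lines at the group medians. Rsad2 had medians of 165 CPM in DKO-labelled libraries and 9.08 CPM in WT-labelled ones, then 9.84 CPM in C1HR and 253 CPM in its WT. Irf1 and Rtp4 lie higher in both mutant groups, and Parp12 in C1HR alone.

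The 3 interferon-inducible PARP proteins, which add ADP-ribose to proteins, did not move as a group. Parp14 measured 48.4 to 106 CPM (median 81.0) in DKO-labelled libraries and 16.9 to 40.7 CPM (median 24.8) in WT-labelled ones, with no overlap (log2 fold change 1.53 with SE 0.23, edgeR adjusted p = 7.97e-05). In C1HR it was not called, at 16.5 to 29.7 CPM (median 20.1) against 16.7 to 24.6 CPM (median 20.1) in its WT (log2 fold change -0.042 with SE 0.084, edgeR adjusted p = 0.645). Parp12 did the reverse. It measured 30.4 to 50.5 CPM (median 42.9) in DKO-labelled libraries and 35.2 to 47.1 CPM (median 39.6) in WT-labelled ones, which overlap (log2 fold change 0.040 with SE 0.11, edgeR adjusted p = 0.775). In C1HR every library, at 21.5 to 33.4 CPM (median 29.2), lay above its WT, at 11.4 to 14.8 CPM (median 12.8) (log2 fold change 1.14 with SE 0.074, edgeR adjusted p = 3.07e-13). Parp9 rose by 0.85 in DKO-labelled libraries and fell by 0.23 in C1HR on the log2 scale; its exons overlap those of Dtx3l on the opposite strand, and reads were counted without strand.

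Pml and Sp100, scaffold proteins of the PML nuclear bodies, separated the groups in both experiments. Pml measured 83.3 to 138 CPM (median 109) in DKO-labelled libraries and 51.2 to 59.4 CPM (median 54.1) in WT-labelled ones, where the values labelled WT spread least of all measured members (log2 fold change 1.02 with SE 0.086, edgeR adjusted p = 3.6e-06). In C1HR it measured 26.98 to 87.3 CPM (median 48.6), against 114 to 149 CPM (median 131) in its WT (log2 fold change -1.35 with SE 0.13, edgeR adjusted p = 1.03e-09). Sp100 measured 101 to 217 CPM (median 141) in DKO-labelled libraries and 18.2 to 62.5 CPM (median 23.8) in WT-labelled ones (log2 fold change 2.20 with SE 0.28, edgeR adjusted p = 3.36e-05). It measured 11.7 to 25.4 CPM (median 14.6) in C1HR and 39.7 to 53.5 CPM (median 46.3) in its WT (log2 fold change -1.50 with SE 0.11, edgeR adjusted p = 4.09e-12).

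The antigen-processing members Tap1 and Psmb8 lie beside each other on chromosome 17, in the major histocompatibility region. Tap1, a subunit of the transporter that loads peptides for class I presentation, measured 48.1 to 98.6 CPM (median 68.7) in DKO-labelled libraries and 15.8 to 32.1 CPM (median 20.3) in WT-labelled ones (log2 fold change 1.68 with SE 0.18, edgeR adjusted p = 1.26e-05). In C1HR it had 23.2 to 32.4 CPM (median 27.3), against 32.6 to 40.8 CPM (median 38.4) in its WT (log2 fold change -0.46 with SE 0.057, edgeR adjusted p = 4.21e-08). Neither pair of groups overlapped for Tap1. Psmb8, an immunoproteasome subunit, rose by 1.30 (SE 0.22) and fell by 0.31 (SE 0.085) on the log2 scale in the same order, with overlap in both.

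The guanylate-binding proteins and immunity-related GTPases attack the vacuoles of intracellular microbes and are targets of interferon gamma. Igtp, or Irgm3, had the largest change among them. It measured 33.8 to 74.5 CPM (median 50.3) in DKO-labelled libraries and 3.87 to 26.4 CPM (median 6.95) in WT-labelled ones (log2 fold change 2.28 with SE 0.39, edgeR adjusted p = 0.000204). It measured 5.52 to 25.4 CPM (median 6.41) in C1HR and 49.3 to 76.3 CPM (median 66.0) in its WT (log2 fold change -2.71 with SE 0.27, edgeR adjusted p = 1.76e-09). Neither pair overlapped, and 9.64% of its 50-base stretches also occur in Irgm2. Gbp2 rose in both experiments, with 12.2 to 38.5 CPM (median 19.4) in DKO-labelled libraries and 5.48 to 23.1 CPM (median 7.42) in WT-labelled ones (log2 fold change 1.16 with SE 0.32, edgeR adjusted p = 0.00583). Across C1HR it had 8.35 to 14.7 CPM (median 11.9), against 7.66 to 11.8 CPM (median 9.85) in its WT (log2 fold change 0.27 with SE 0.090, edgeR adjusted p = 0.00717). The C1HR call was lost in a single fit of all 4 groups (0.26, edgeR adjusted p = 0.21). Its neighbour Gbp3 on chromosome 3 measured 12.7 to 25.8 CPM (median 19.9) in DKO-labelled libraries and 2.54 to 16.9 CPM (median 5.49) in WT-labelled ones (log2 fold change 1.46 with SE 0.35, edgeR adjusted p = 0.00241). Gbp3 was not called in C1HR, at 3.27 to 5.26 CPM (median 3.96) against 3.62 to 5.10 CPM (median 4.53) in its WT (log2 fold change -0.15 with SE 0.088, edgeR adjusted p = 0.126), but was lower without C1HR 1 (-0.18, edgeR adjusted p = 0.0479) and without C1HR 8 and C1HR 9 (-0.24, edgeR adjusted p = 0.018). Groups overlapped in both experiments for Gbp2 and Gbp3. Irgm1 rose by 1.14 (SE 0.19) in DKO-labelled libraries and fell by 0.56 (SE 0.071) in C1HR on the log2 scale.

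The difference between the 2 effects was tested as a contrast in 1 fit of all 4 groups, the Sik2/3 effect minus the C1HR effect. It was positive and called in 31 of 36 members, and negative and called in Parp12 alone (-1.04, SE 0.13, edgeR adjusted p = 3.28e-09). The 36 include Ifit3, Mx1 and Mx2, which were too low to be tested in C1HR. Of these only Mx1 had a called difference, which rests mainly on the Sik2/3 libraries. Over all 15387 genes tested, 38.1% had a positive and 42% a negative called difference (80.2% either way), with a median of -0.10 where the members' median was 1.72. Beyond 2-fold, 26 members had a positive difference, against 23.9% of all genes, and 1 a negative one, against 28.9% (52.8% either way). The largest differences were those of Rsad2 (6.04, SE 0.89), Cmpk2 (5.41, SE 0.52), Igtp (5.06, SE 0.46), Usp18 (4.46, SE 0.43) and Isg15 (4.38, SE 0.49). Among the 6 members that rose in both experiments, 5 rose more in DKO-labelled libraries, by a log2 difference of 0.67 for Ddx58 to 1.53 for Xaf1, and the difference of Irf1 was called in the alternatives given above alone. Mx2 gained a call without WT 5, WT 6 or WT 10 of C1HR (1.08 to 1.16, edgeR adjusted p of 0.0403 to 0.0498). It was also called in limma voom (1.29, adjusted p = 0.015). In edgeR it was called with total counts, the replicate block or without WT 5, WT 6, C1HR 8 and C1HR 9 (1.175 to 1.46, adjusted p of 0.011 to 0.0328). Ifitm3 was called without WT 6 (-0.30, edgeR adjusted p = 0.0408) and in limma voom (-0.49, adjusted p = 0.000478). It was also called with the replicate block or without those libraries (-0.24 to -0.395, edgeR adjusted p of 0.00694 to 0.0461). With total counts it was 0.33 (edgeR adjusted p = 0.0245). The experiments differ in depth, and their bones may differ in preparation, so the contrast also holds any difference between the experiments.

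On levels per kilobase of annotated exon, averaged over the 39 libraries, Ifitm3 stood first with 178.5 CPM per kilobase. Rsad2 followed with 29.9 and Bst2 with 26.7 CPM per kilobase, then Igtp with 16.6 and Isg15 with 15.5. The lowest measured members were Mx1, Mx2 and Ifi44, with 0.759, 0.511 and 0.402 CPM per kilobase. The order depended on the group. Rsad2 averaged 41.1 CPM per kilobase in DKO-labelled libraries and 5.88 in WT-labelled ones, then 7.24 in C1HR and 63.9 in its WT, where it came second only to Ifitm3 at 138.5.

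Libraries of the Sik2/3 experiment kept a similar rank in many members. The mean log2 CPM over the 36 measured members was 4.52 to 5.63 in DKO-labelled libraries (median 5.01) and 2.80 to 4.35 in WT-labelled ones (median 3.35). It was 2.66 to 3.15 in C1HR (median 2.96) and 3.47 to 3.68 in its WT (median 3.50), so neither pair of groups overlapped. DKO 3 was the highest library labelled DKO in 28 of 36 members, and DKO 3 and DKO 4 were the highest pair in 29. DKO 1 and DKO 2 were the lowest pair in 20. Among WT-labelled libraries, WT 5 and WT 6 were the highest pair in 26 members. C1HR 8 and C1HR 9 were the highest C1HR pair in 10 of the 18 members that fell in C1HR and in 0 of the 18 others. These libraries also had the highest granulocyte marker sums of C1HR, as given below. In the WT of C1HR each library was the highest in 0 to 6 members.

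Markers of several marrow cell types moved in the same directions as most members. Among all genes tested, 24.1% were higher and 30.9% lower in DKO-labelled libraries, and 43.7% were higher and 40.6% lower in C1HR. Of 10 granulocyte markers, 9 were higher in DKO-labelled libraries than in WT-labelled ones and 10 were lower in C1HR than in its WT. Their summed level was 7410 to 18704 CPM in DKO-labelled libraries and 653 to 9663 CPM in WT-labelled ones, and 178 to 4446 CPM in C1HR and 10619 to 15762 CPM in its WT. Of 8 B lineage markers, 8 were higher in DKO-labelled libraries and 7 lower in C1HR, with summed levels of 224 to 378 CPM against 46.8 to 187 CPM, and of 91.0 to 222.9 CPM against 358 to 506 CPM. Of 8 erythroid markers, 7 were higher in DKO-labelled libraries and 8 lower in C1HR, with summed levels of 2996 to 8944 CPM against 149 to 4503 CPM, and of 275 to 8650 CPM against 16638 to 35579 CPM. Of 7 markers of T and NK cells, the main sources of interferon gamma, 6 were higher in DKO-labelled libraries, where they summed to 36.6 to 73.8 CPM against 1.89 to 43.8 CPM. In C1HR 2 of the 5 tested were lower, Nkg7 (log2 fold change -3.16) and Prf1 (-1.11). The sums were 4.92 to 15.9 CPM against 28.8 to 44.1 CPM in its WT. Nkg7 had the most reads of the 7 in every library of that WT, so the lower sums in C1HR mainly reflect that gene. Cd3e (0.54), Cd3g (0.26) and Klrd1 (-0.24) were not called. No marker of these lists was at 0 in every library. Osteoclast markers went the other way, with 7 of 7 lower in DKO-labelled libraries and 7 of 7 higher in C1HR. Of 7 osteoblast markers, 4 were lower and 0 higher in DKO-labelled libraries, and 7 were higher in C1HR. The osteoblast sums had medians of 68436 CPM in DKO-labelled libraries and 118578 CPM in WT-labelled ones. They were 235632 CPM in C1HR and 51163 CPM in its WT. Of 7 monocyte and macrophage markers, 2 were higher (Ly6c2 and Ccr2) and 3 lower (Csf1r, Cd68 and C1qa) in DKO-labelled libraries, while 5 were higher and 2 lower in C1HR. Their sums were 858 to 1258 CPM in DKO-labelled libraries against 789 to 2320 CPM in WT-labelled ones, and 1079 to 1713 CPM in C1HR against 656 to 802.5 CPM in its WT. Of 5 plasmacytoid dendritic cell markers, 3 were higher (Siglech, Ccr9 and Klk1) and 0 lower in DKO-labelled libraries. Pacsin1 (log2 fold change -0.17) and Cox6a2 (-1.47) were not called. The sums were 66.8 to 146.6 CPM (median 94.2) in DKO-labelled libraries and 71.2 to 250.2 CPM (median 97.7) in WT-labelled ones. Of 5 conventional dendritic cell markers, 2 were higher (Flt3 and Clec9a) and 0 lower in DKO-labelled libraries. Dendritic cell markers were mixed in C1HR, with Siglech, Ccr9 and Flt3 lower and Pacsin1, Xcr1 and Itgax higher. In bulk RNA, fewer cells of a type and less RNA per cell cannot be told apart, and the part of marrow cells in the changes of the members was not tested.

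**Figure D3:**
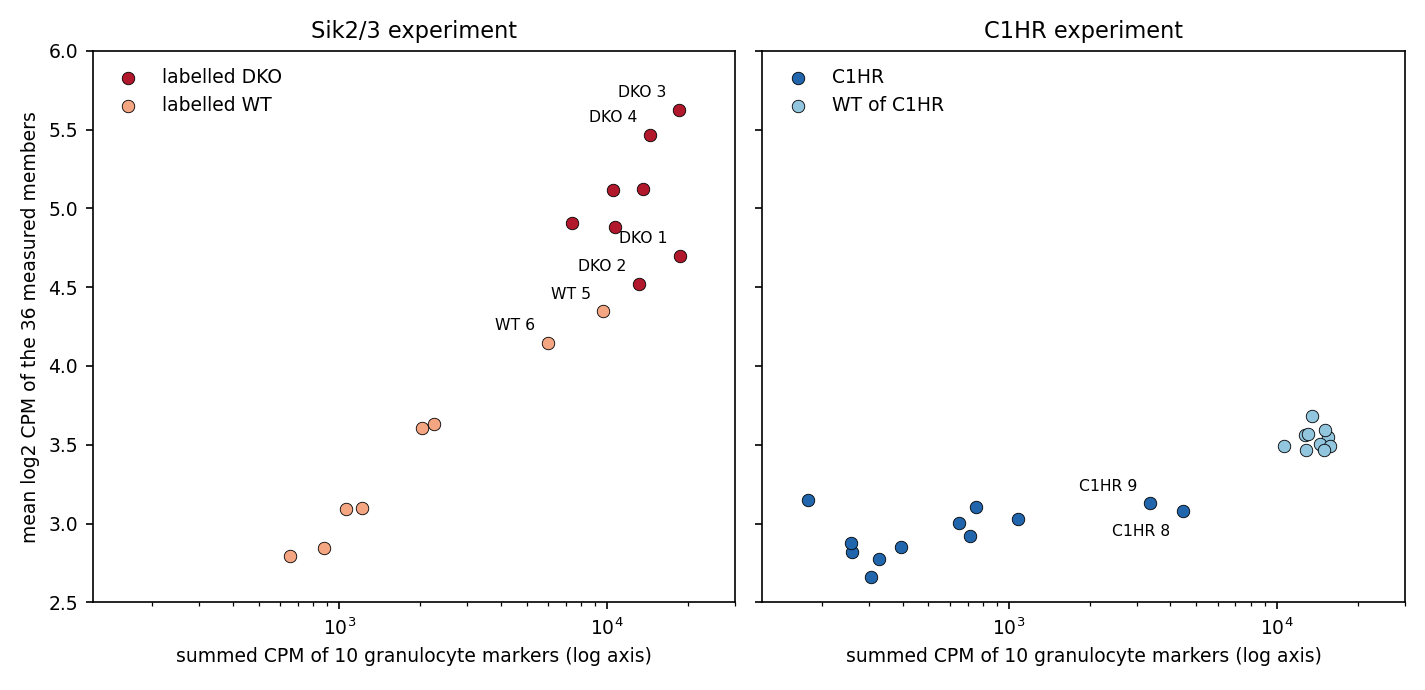
Mean log2 CPM of the 36 measured members (vertical axis) against the summed CPM of 10 granulocyte markers (horizontal, log axis), 1 point per library, with the Sik2/3 experiment on the left and the C1HR experiment on the right. The named libraries WT 5 and WT 6 lie nearest to DKO-labelled libraries on both axes, and DKO 1 has as high a marker sum as DKO 3 with a lower mean of the members, 4.70 against 5.63.

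Granulocyte marker sums were set beside the members in some libraries at the extremes. DKO 1 and DKO 3 had nearly the same granulocyte sum, 18704 and 18590 CPM, while their means over the members were 4.70 and 5.63. Ptprc, the pan-leukocyte marker CD45, measured 206 CPM in DKO 1 and 383 CPM in DKO 3. This is 1 pair of libraries, and the cause of its difference was not tested. WT 5 and WT 6 had granulocyte sums of 9663 and 6016 CPM, where the other 6 WT-labelled libraries had lower ones. Without them, 33 members were higher in DKO-labelled libraries. Of all 15660 genes then tested, 64.4% were called, 4884 higher and 5201 lower. C1HR 8 and C1HR 9 had granulocyte sums of 4446 and 3353 CPM, where the other C1HR libraries had 178 to 1077 CPM. Their erythroid sums were 8650 and 7163 CPM, against 275 to 1746 CPM in the others. Without C1HR 8 and C1HR 9, 7 members were higher and 20 lower in C1HR. Of all 13887 genes then tested, 85.2% were called, 5573 higher and 6262 lower.

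With mean log2 levels of the erythroid, granulocyte and B lineage markers as covariates, 13.5% of all genes were called in DKO-labelled libraries. Of 15479 genes, 854 were higher and 1242 lower. The calls of members shrank to 4 of 36, all higher. Those 4 were Pml (log2 fold change 0.87, edgeR adjusted p = 0.00538), Sp100 (0.88, edgeR adjusted p = 0.0192), Tap1 (0.92, edgeR adjusted p = 0.0219) and Irf7 (1.16, edgeR adjusted p = 0.0443). The members' median was 0.38 in that fit. Rsad2 and Isg15, among the largest changes without the covariates, had log2 fold changes of 0.33 (edgeR adjusted p = 0.266) and 0.13 (edgeR adjusted p = 0.774). In C1HR the same covariates left 2 of 33 members higher and 10 lower, with 47.6% of all genes called (3824 of 13976 higher, 2830 lower). Irf1 (0.47, edgeR adjusted p = 0.00531) and Parp12 (0.73, edgeR adjusted p = 0.000445) were the higher ones. The lower ones were Irf9, Irf7, Dhx58, Isg15, Usp18, Herc6, Ifit2, Cmpk2, Sp100 and Igtp, with Isg15 at -1.38 (edgeR adjusted p = 0.0125). The marker levels differed between the groups as given above, so in these fits the share of genotype and that of marrow cells cannot be told apart.

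**Figure D4:**
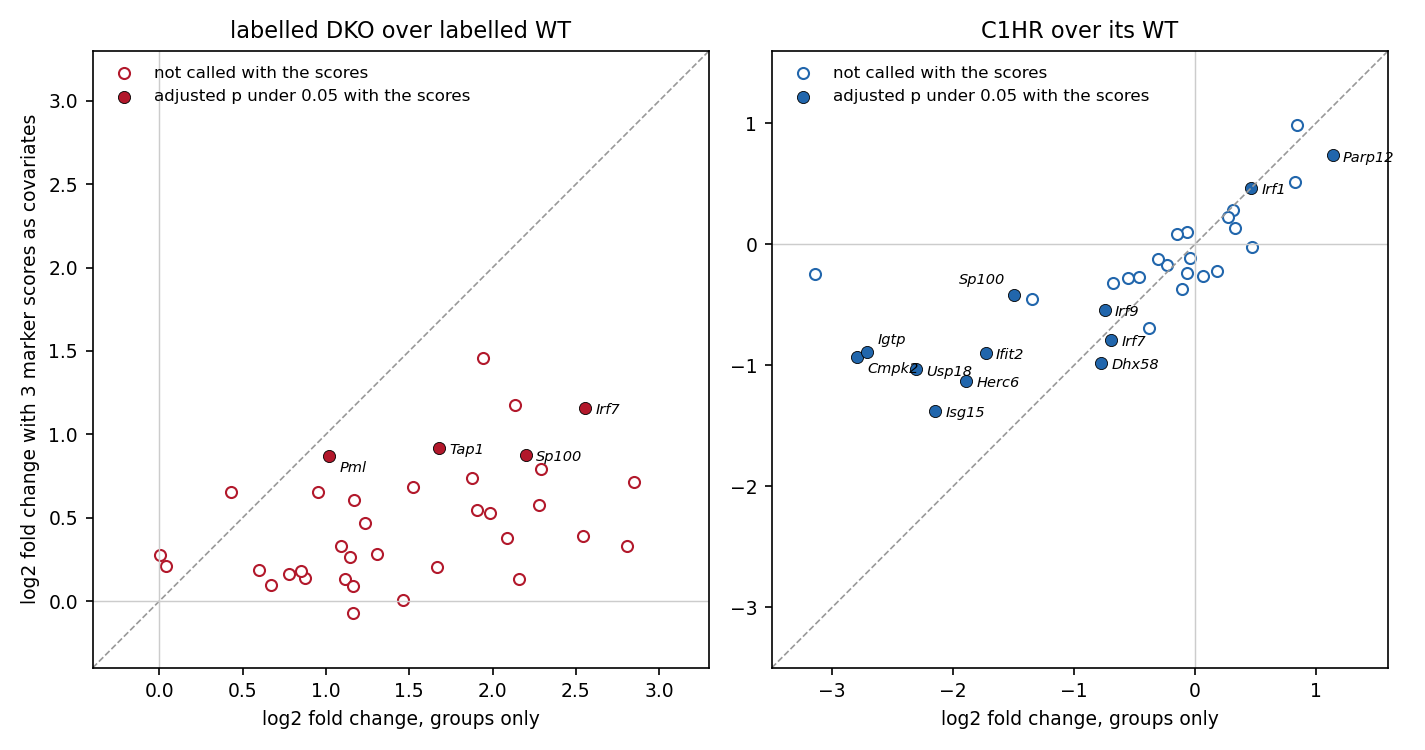
Log2 fold change of each tested member without covariates (horizontal axis) and with 3 marrow marker scores as covariates (vertical axis), for DKO-labelled libraries over WT-labelled ones on the left and C1HR over its WT on the right. Filled points passed an adjusted p under 0.05 with the scores, 4 of 36 on the left and 12 of 33 on the right, and the dashed line marks equal values.

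Further genes of the interferon pathway were read from a list of 54, of which 45 were tested in the Sik2/3 experiment and 44 in the C1HR experiment. In DKO-labelled libraries 32 were higher and 4 lower, and in C1HR 11 were higher and 24 lower. Among all genes tested 24.1% were higher and 30.9% lower in the first comparison, and 43.7% and 40.6% in the second, where the share of pathway genes called was near the 84.3% of all genes. The ligands were scarcely detected. Ifna1, Ifna2, Ifna4 and Il28b had 0 reads in every library, Ifnb1 had 1 read in all, and Ifnk and Ifne had at most 2 in a library. Ifng, interferon gamma, had 43 reads over DKO-labelled libraries and 3 over WT-labelled ones, and 10 over C1HR and 12 over its WT. Of the 43 reads, 16 came from DKO 3 and 15 from DKO 4, the libraries highest in most members, and the other 6 DKO-labelled libraries had 0 to 4 each. It was too low to be tested.

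The receptors did not follow the members as a group. Ifngr2, the signalling chain of the interferon gamma receptor, fell in DKO-labelled libraries (log2 fold change -0.51 with SE 0.089, edgeR adjusted p = 0.000219) and rose in C1HR (log2 fold change 1.09 with SE 0.067, edgeR adjusted p = 9.57e-14). Ifnar1, a chain of the type I receptor, was not called in DKO-labelled libraries and rose in C1HR by 0.68 (SE 0.042), while Ifnar2, its partner chain, rose by 0.41 (SE 0.073) and fell by 0.14 (SE 0.055) on the log2 scale in the same order. Without C1HR 5 the fall of Ifnar2 was not called (log2 fold change -0.11, edgeR adjusted p = 0.052).

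Of 5 other IRF factors, 4 rose in DKO-labelled libraries and the same 4 fell in C1HR, namely Irf2, Irf4, Irf5 and Irf8. In the same comparisons 24.1% of all genes tested rose and 30.9% fell in DKO-labelled libraries, and 43.7% rose and 40.6% fell in C1HR. Irf8, which directs the monocyte and dendritic cell lineages, measured 71.4 to 168 CPM (median 102) in DKO-labelled libraries and 12.4 to 55.7 CPM (median 21.7) in WT-labelled ones (log2 fold change 1.99 with SE 0.32, edgeR adjusted p = 0.000125). In C1HR it had 18.7 to 36.3 CPM (median 27.3), against 63.5 to 88.6 CPM (median 77.0) in its WT (log2 fold change -1.49 with SE 0.11, edgeR adjusted p = 1.88e-12). Irf5, a factor downstream of endosomal receptors, rose by 1.07 (SE 0.11) and fell by 0.51 (SE 0.079) on the log2 scale. Irf3, which cells hold ready for activation by phosphorylation, was called in neither experiment. It was lower in limma voom in both (-0.22, adjusted p = 0.00595, and -0.18, adjusted p = 0.00655). In C1HR it was also lower with DESeq2 size factors, total counts, covariates or without C1HR 8 and C1HR 9 (-0.16 to -0.53, edgeR adjusted p of 3.82e-05 to 0.0481). Among 10 upstream sensors and adaptors, 6 rose and 1 fell in DKO-labelled libraries, while 3 rose and 4 fell in C1HR. Ikbke, a kinase that activates IRF3 and IRF7, rose by 0.82 (SE 0.084) and fell by 0.50 (SE 0.076) on the log2 scale. Tlr3, the endosomal receptor for double-stranded RNA, was not called in DKO-labelled libraries (log2 fold change -0.22 with SE 0.095, edgeR adjusted p = 0.0582) and rose in C1HR (log2 fold change 1.33 with SE 0.090, edgeR adjusted p = 6.69e-13). Without DKO 4 it was lower in DKO-labelled libraries (log2 fold change -0.27, edgeR adjusted p = 0.0244).

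The 7 tested negative regulators went both ways, with 4 higher and 1 lower in DKO-labelled libraries and 2 higher and 4 lower in C1HR. Shares over all genes tested were 24.1% higher and 30.9% lower in DKO-labelled libraries, and 43.7% higher and 40.6% lower in C1HR. Adar, the enzyme that edits double-stranded RNA, rose by 1.03 (SE 0.12) and fell by 0.33 (SE 0.065) on the log2 scale. Socs3, a feedback inhibitor of cytokine receptors, measured 19.5 to 48.1 CPM (median 21.9) in DKO-labelled libraries and 35.6 to 126 CPM (median 90.1) in WT-labelled ones (log2 fold change -1.67 with SE 0.28, edgeR adjusted p = 0.000172), and 55.8 to 103 CPM (median 81.8) in C1HR against 14.2 to 26.6 CPM (median 19.4) in its WT (log2 fold change 1.98 with SE 0.12, edgeR adjusted p = 1.32e-13). It thus moved against most members in both experiments. Ptpn6, the phosphatase SHP-1 of haematopoietic cells, rose by 1.68 (SE 0.25) in DKO-labelled libraries and fell by 1.47 (SE 0.10) in C1HR on the log2 scale. Of 13 further targets of interferon gamma, all 13 rose in DKO-labelled libraries, and of 12 tested in C1HR 7 fell and 2 rose. In C1HR 84.3% of all genes tested were called. Trim25, a ubiquitin ligase that acts on RIG-I, rose by 0.79 (SE 0.086) and fell by 0.43 (SE 0.058). Ifi47, a GTPase related to Igtp, rose by 2.07 (SE 0.48) in DKO-labelled libraries and fell by 2.43 (SE 0.13) in C1HR.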

How the data were processed

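Total RNA of mouse femur cortical bone was sequenced as 39 libraries. Per the submitters' processing notes, reads were aligned to mm9 with STAR, counted with HTSeq and tested with edgeR; the versions and the annotation release are not given in the sources used here. The design text speaks of CPM, but the deposited values are whole-number read counts per Ensembl gene, counted without strand per the labels of the deposited files. They were used as raw counts. Tallies of unassigned reads (median 42.7% of reads in DKO-labelled libraries, 37.5% in WT-labelled ones, 37.9% in C1HR and 55.5% in its WT) were left out of library sizes. No libraries of a group agreed within sampling noise (chi-square per degree of freedom at least 4.6).

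Symbols came from GENCODE vM1 (NCBIM37), which matched 37168 of 37583 identifiers. The 37 members, the pathway genes and the markers were chosen with earlier results of these data known. Genes were filtered (filterByExpr, minimum count 10 and total 15), scaled by TMM and tested with edgeR 4.0.16 (quasi-likelihood, robust, R 4.3.3) with Benjamini-Hochberg adjustment over all genes tested. A call is an adjusted p under 0.05, and the 2-fold counts add the study's own limit. Each mutant was compared with its own WT, and the difference of effects in 1 fit of all 4 groups. CPM were scaled within each experiment, so levels set across experiments were not normalized together, and log2 CPM used a prior count of 2. The procedure was tested on simulated data. Alternatives were other scalings, no filter, DESeq2 1.42.0, limma voom 3.58.1, a replicate block, marker covariates, a fit of all groups and left-out libraries; leaving out DKO 3 and DKO 4 was chosen after seeing the data. Promoter windows are RefSeq sequences of GRCm38.p6, a later build than that of the counts. Values are given in full for the most abundant and most changed member of each role, and for each member called the same way in both experiments or not called in one.

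With 11444686 or more gene counts per library, counting error is small for members with many reads, where the spread between libraries limits the precision. For members with few reads it is not small. Ifi44, for one, had 2 to 20 reads per library in the C1HR experiment. Exons of 11 members overlap another gene, from which reads cannot be told apart without strand. One gene of the pathway list is not reported here by name.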

Additional observations from a re-analysis of the deposited data

Results flagged for a closer look

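The library labelled WT 5 stood apart from the other WT-labelled libraries in 5 members: it held 17.3 CPM of Isg15, 11.5 CPM of Ifit3, 32.1 CPM of Bst2, 36.4 CPM of Parp9 and 27.7 CPM of Psmb8, each beyond the limit of Dixon's test. Of 72 sets of 8 libraries examined, 5 held such a library, and chance gives about 1 in 20. Its granulocyte marker sum of 9663 CPM was also the highest of its group, and the part of marrow cells in its levels was not tested.

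The log2 fold change differed between the experiments in 32 members, by edgeR's test of the Sik2/3 log2 fold change minus the C1HR log2 fold change. The transcription factors differed by 1.16 (Stat2), 2.04 (Irf9) and 3.31 (Irf7). The sensors differed by 0.67 (Ddx58), 1.85 (Ifih1), 2.82 (Dhx58), 0.80 (Eif2ak2) and 2.41 (Zbp1). The ISG15 system differed by 4.38 (Isg15), 4.46 (Usp18) and 3.11 (Herc6), and the IFIT genes by 2.11 (Ifit1) and 2.67 (Ifit2). Among the effectors the differences were 3.38 (Mx1), 6.04 (Rsad2), 5.41 (Cmpk2), 0.97 (Bst2), 1.13 (Rtp4), 1.34 (Ifi44), 0.61 (Ifi35) and 1.53 (Xaf1). Mx1 was too low to be tested in C1HR, so its difference rests mainly on the Sik2/3 libraries. The PARP genes differed by 1.15 (Parp9), 1.62 (Parp14) and, with the opposite sign, -1.04 (Parp12). The remaining differences were 2.44 (Pml), 3.76 (Sp100), 1.67 (Psmb8), 2.20 (Tap1), 0.95 (Gbp2), 1.67 (Gbp3), 5.06 (Igtp) and 1.76 (Irgm1).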

How the results depend on the processing

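Calls of 33 members higher in DKO-labelled libraries numbered 32 to 34 under the other scalings, tools, filters and left-out libraries, but 27 beyond 2-fold and 4 with marker covariates. In C1HR the 8 higher and 18 lower members became 2 and 10 with the covariates, 1 and 9 beyond 2-fold, and 2 higher with total counts. The single lower difference became 2 in limma voom, with the replicate block and without WT 5, WT 6, C1HR 8 and C1HR 9. The 32 pathway genes higher in DKO-labelled libraries became 7 with covariates and 19 beyond 2-fold; the 4 lower became 2 with DESeq2 size factors, total counts or DESeq2, 7 with voom, and 1 with covariates or beyond 2-fold. The 11 higher and 24 lower in C1HR became 6 and 10 with covariates and 4 and 8 beyond 2-fold, and the 8 lower differences became 4 beyond 2-fold. Leaving out 1 library at a time gave 2 to 5 lower pathway genes in DKO-labelled libraries and 1 to 2 lower differences of members. The cause of these changes was not tested.

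Some log2 fold changes turned sign. In the Sik2/3 experiment that of Ifitm3 was -0.0020 without the filter, -0.19 in voom, -0.061 without WT 5 and WT 6, -0.077 without DKO 3 and DKO 4, and -0.052 to 0.045 with single libraries left out. Parp12 was at -0.049 without DKO 3 and DKO 4, and -0.0010 to 0.097 with single libraries left out. Gbp2 was at -0.069 with covariates, Ifnar1 at 0.052 and Irf3 at 0.088 with total counts, and these were at 0.11 and 0.17 with covariates. In C1HR total counts gave -0.33 for Stat2, -0.078 for Ddx58, -0.22 for Bst2, -0.10 for Ifitm3 and -0.14 for Gbp2. Covariates gave -0.26 for Stat2, 0.098 for Zbp1, -0.22 for Bst2, -0.018 for Xaf1, 0.085 for Gbp3 and 0.062 for Adar. Stat2 was at -0.027 without C1HR 8 and C1HR 9, Parp14 at 0.014 in voom, and Zbp1 at -0.14 to 0.013 with single libraries left out. The difference was 0.33 for Ifit3 and 0.33 for Ifitm3 with total counts, and 0.23 for Ifit3 in voom. Total counts moved the median log2 fold change of all genes to 0.12 in the Sik2/3 experiment and -0.35 in C1HR.

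The labels share replicate numbers but do not say that these pair mutant with WT libraries, and the main tests did not pair them. Correlations of same-numbered libraries ran from -0.256 to 0.309 in the Sik2/3 experiment, with 5 of 8 pairs above 0.1. They ran from -0.182 to 0.341 in C1HR, with 4 of 11. In each experiment 2 pairs correlated best with their own number. These correlations do not settle whether the libraries are paired. With the replicate block 34 members were higher in DKO-labelled libraries, the added one being Ifi35 (log2 fold change 0.43, edgeR adjusted p = 0.00467). Some neighbours by number lay closest in their group. In WT-labelled libraries chi-square per degree of freedom was 7.365 for 1 and 2 and 17.97 for 3 and 4. It was 132.8 for 5 and 6 and 18.26 for 7 and 8. C1HR 8 and C1HR 9 had 8.554. DKO 3, however, was nearer to DKO 5 (43.1) than to DKO 4 (49.72). Whether such libraries are independent was not tested, and p-values are too small if they are not.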
